A study of Mus musculus with 19 samples.

Results

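The transcripts described here belong to 3 mouse genes that are classic subjects of work on FMRP, the RNA-binding protein whose loss causes fragile X syndrome. They are 5 of the 49932 transcripts that had at least 1 tag in any of the 19 libraries: ENSMUST00000025519, ENSMUST00000039904 and ENSMUST00000102888 of Camk2a, ENSMUST00000064762 of Map1b and ENSMUST00000088546 of Fmr1. They were chosen as a list of identifiers, with no threshold on their tag counts, and the gene names come with that choice. The gene table used alongside (RefSeq, GRCm38.p6) lists no Ensembl transcript identifiers and held 0 of the 5, so the pairing of identifier and gene was not checked. In that table Camk2a lies on chromosome 18, Map1b on chromosome 13 from 99421464 to 99516602 and Fmr1 on chromosome X from 68678536 to 68717963. Each gene has several RefSeq transcripts, 5 for Camk2a, 2 for Map1b and 7 for Fmr1.

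FMRP associates with messenger RNAs and polyribosomes and holds back their translation, and in neurons it is found in dendrites as well as the cell body. Camk2a encodes the alpha subunit of calcium/calmodulin-dependent kinase II, a kinase of the postsynaptic density of excitatory neurons whose mRNA is carried into dendrites and translated there. Map1b encodes microtubule-associated protein 1B, which binds the neuronal cytoskeleton and was among the first mRNAs described as FMRP targets. Fmr1 encodes FMRP itself.

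The study used crosslinking and immunoprecipitation (CLIP), in which RNA bound to a protein by ultraviolet light is purified with that protein and sequenced as short tags. All libraries came from CA1 tissue of acute hippocampal slices, dissected in cycloheximide, an inhibitor of translation. The mice are labelled Camk2a-Cre x Fmr1 cTag: FMRP carries a tag only where Cre recombinase is made, and the Camk2a promoter that drives it is active in excitatory neurons of the forebrain. The tissue had received an adeno-associated virus, AAV-ChR2, which carries the light-gated channel channelrhodopsin-2 (the opto libraries), or AAV-Control (the control libraries), and was taken 5 or 30 min after activation, with 4 libraries for each virus and time. A further 3 libraries are labelled noCre in title and treatment, although they carry the same genotype and cell type labels as the rest, and were taken as the background of the purification. The labels do not give the age of the animals, how many animals made up a library, or whether replicates came from separate animals, so the p-values below measure the spread between these libraries, which may be partly technical. The labelled cell type could be examined through Camk2a alone, whose promoter also drives the Cre. Markers of other cell types were not analysed here.

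Total tags ran from 20456 to 341445 in the 16 Cre-positive libraries and from 34 to 5557 in noCre. At 30 min the opto group was the shallowest of the Cre-positive groups by its median, and ran from 20456 to 121972 tags against 81588 to 192471 in its controls. Depth thus moves with activation at this time. Levels are given as CPM, the tags on a transcript per 1000000 tags, scaled by TMM (trimmed mean of M-values) to the tags of the 2871 transcripts that passed the filter on low counts, or as a percentage of all tags of a library. Tag counts grow with transcript length, which was not used here, so levels are compared between libraries and not between genes. No measure of RNA abundance was analysed here. More tags can therefore come from more RNA, from more FMRP on each RNA or from more cells of the tagged type, and these cannot be told apart.

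All 3 Camk2a transcripts and the Map1b transcript had tags in 16 of 16 Cre-positive libraries and passed the filter. The Fmr1 transcript had 2 tags in all and did not. Camk2a ENSMUST00000102888 had 65 to 793 tags per Cre-positive library and 6093 in all (0.285% of 2137473 tags). ENSMUST00000025519 had 25 to 453 tags per library and 3491 in all (0.163%), and ENSMUST00000039904 had 16 to 242 and 1776 in all (0.0831%). Map1b ENSMUST00000064762 had 118 to 2038 tags per library and 13316 in all (0.623%).

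**Figure D1:**
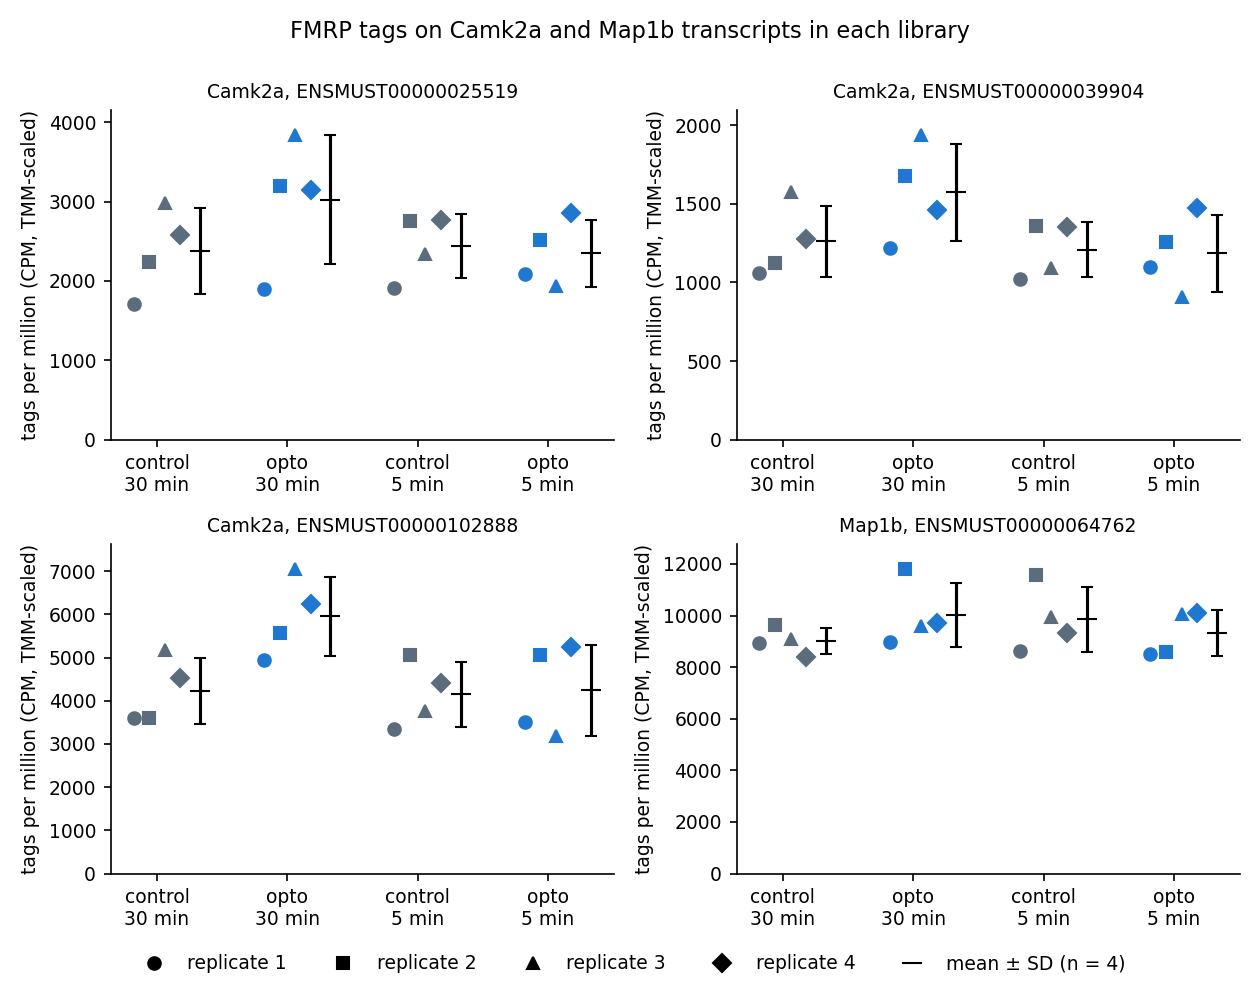
CPM (TMM-scaled, linear axis from 0) of the 3 Camk2a transcripts and the Map1b transcript in each Cre-positive library, by group. Symbols mark replicates 1 to 4, and the bar beside each group is the mean ± SD (n = 4). The 30 min opto libraries of ENSMUST00000102888 sit between 4942 and 7063 CPM and their controls between 3604 and 5176, while Map1b stays between 8398 and 11824 CPM throughout.

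At 30 min Camk2a, the kinase mRNA, carried a larger share of FMRP tags in activated than in control tissue in every same-numbered pair of libraries. No label says that these numbers pair libraries. A higher value in all 4 pairs was found in 7.42% of the 2871 tested transcripts, and in 12.6% of those averaging at least 50 tags. None of the 3 Camk2a transcripts passed the test across all transcripts. ENSMUST00000102888 had 4942, 5567, 7063 and 6245 CPM in opto replicates 1 to 4 and 3606, 3604, 5176 and 4537 CPM in control replicates 1 to 4. The groups overlapped by a single opto library, replicate 1, which lay below control replicate 3. Mean levels were 5954 ± 911 CPM for opto and 4231 ± 768 for the controls (SD, n = 4 each), a fitted log2 fold change of 0.51 (SE 0.21, edgeR unadjusted p = 0.0219, adjusted p = 0.590). That is a 1.42-fold difference with a 95% interval of 1.06 to 1.91, before adjustment for the number of transcripts. The opto library was higher in 4 of 4 pairs, by 1.37, 1.54, 1.36 and 1.38-fold in replicates 1 to 4.

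The opto values of this transcript rest on 65, 113, 579 and 175 tags. Its share of the library in the shallowest of them, replicate 1, was 0.318% (95% Wilson interval 0.249 to 0.405%), and in the deepest, replicate 3, 0.475% (0.438 to 0.515%). Thus the shallowest opto library had the lowest share of its group and the deepest the highest. As a group, opto was shallower than control and higher. In the 30 min controls the shallowest library had 0.233% and the deepest, of 192471 tags, 0.241%, with 0.304 and 0.347% in the others. The 5 min groups ran otherwise. Opto libraries of 84614 and 98257 tags had 0.344 and 0.339%, against 0.215 and 0.240% at 194181 and 256727 tags. The 5 min controls had 0.334% in the shallowest library, of 40173 tags, and 0.232% in the deepest, of 341445. The order of share with depth thus differed between the groups, and at 5 min the shallowest library of each had the highest share. At 30 min depth moves with activation, so their parts in the difference cannot be told apart. The Wilson intervals above cover counting error only.

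The other Camk2a transcripts followed the same order with smaller differences. ENSMUST00000025519 had 1901, 3202, 3842 and 3141 CPM in opto replicates 1 to 4 against 1708, 2245, 2985 and 2582 in the controls, with means of 3021 ± 812 and 2380 ± 540 (SD, n = 4 each). The fit gave it a log2 fold change of 0.38 (SE 0.22, adjusted p = 0.624 in edgeR), a 1.30-fold difference (95% interval 0.959 to 1.77), with opto higher in 4 of 4 pairs and overlapping groups. ENSMUST00000039904 had 1216, 1675, 1939 and 1463 CPM in opto against 1063, 1126, 1575 and 1279 in control, with means of 1574 ± 308 and 1261 ± 228 (SD, n = 4 each). Its log2 value was 0.36 (SE 0.21, adjusted p = 0.624 in edgeR), a 1.29-fold difference (95% interval 0.961 to 1.72), again with opto higher in 4 of 4 pairs and overlapping groups. The 3 transcripts are forms of one gene and may share tags, so they are not independent observations. Summed into a single row, they gave a log2 fold change of 0.42 (SE 0.21, edgeR unadjusted p = 0.0515, adjusted p = 0.589).

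Map1b differed less between the groups at 30 min. Its opto libraries had 8972, 11824, 9600 and 9707 CPM and its controls 8921, 9624, 9097 and 8398 CPM in replicates 1 to 4. Opto replicates 2 and 4 lay above every control, replicate 4 by little, and the other opto libraries fell within the range of the controls. The means were 10026 ± 1242 and 9010 ± 506 CPM (SD, n = 4 each), fitted as a log2 difference of 0.15 (SE 0.18, adjusted p = 0.847 by edgeR), or 1.11-fold (95% interval 0.857 to 1.45). Opto was higher in 4 of 4 pairs, by 1.01 to 1.23-fold, but the fitted value turned to -0.037 with replicate block and depth as covariates. With no filter on low counts it was -0.21, where the median of all tested transcripts moved by -0.28, so relative to that shift it did not turn.

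Read against the whole table, 0 of the 4 tested transcripts passed an adjusted p of 0.05 at 30 min in edgeR, DESeq2 or limma, where edgeR called 1 of 2871 (0.0348%), and 1 of 4 had an unadjusted p under 0.05 in each of these tools, against 8.39% of all tested transcripts in edgeR (2.93% higher in opto). Without opto replicate 1 the count by unadjusted p was 3 of 4, all 3 of them forms of Camk2a that may share tags. It was 0 of 4 without opto replicate 3, opto replicate 4, control replicate 1 or control replicate 2. Each time 0 of 4 passed the adjusted threshold. The share of all transcripts under that unadjusted p was not computed for these fits, so the counts have no background beside them. The log2 fold change was 0.42 for the summed Camk2a transcripts and 0.15 for Map1b. The median was -0.022 over the 2871 transcripts and 0.041 over the 334 that averaged 50 tags or more per library. Among those 334, 20 had a higher log2 fold change than ENSMUST00000102888, 38 than ENSMUST00000025519, 42 than ENSMUST00000039904 and 127 than Map1b. A higher value in all 4 same-numbered pairs, as in 4 of the 4 members, was found in 7.42% of the 2871 transcripts and in 12.6% of the 334. Groups that did not overlap, with opto higher, were found in 0 of the 4 and in 1.32% of the 2871.

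Adding the replicate number to the fit as a block left every member short of the adjusted threshold too, while 2 of 4 had an unadjusted p under 0.05, against 9.16% of all. Deviations of same-numbered 30 min libraries from their group means correlated at 0.202 to 0.493 over the 334 transcripts. Differently numbered libraries were not compared, so these values do not show that the numbers pair libraries. With the block ENSMUST00000102888 had a log2 fold change of 0.50 with a smaller SE of 0.14 (edgeR unadjusted p = 0.00108, adjusted p = 0.103), where 0.313% of all transcripts were called. With library depth as a covariate, a setting chosen after seeing the data, its log2 fold change was 0.40 (SE 0.24, edgeR unadjusted p = 0.106, adjusted p = 0.943). With block and depth together it was 0.34 (SE 0.20, edgeR unadjusted p = 0.0958, adjusted p = 0.994). In both fits with depth its unadjusted p was thus above 0.05. Without any single library of this comparison, and with neither block nor depth, its log2 fold change stayed between 0.37 and 0.58. The other members rested more on single libraries: without opto replicate 3, ENSMUST00000025519 was 0.19 and ENSMUST00000039904 0.18, without control replicate 1 ENSMUST00000025519 was 0.25, and Map1b was 0.068 without opto replicate 2 or control replicate 4.

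**Figure D2:**
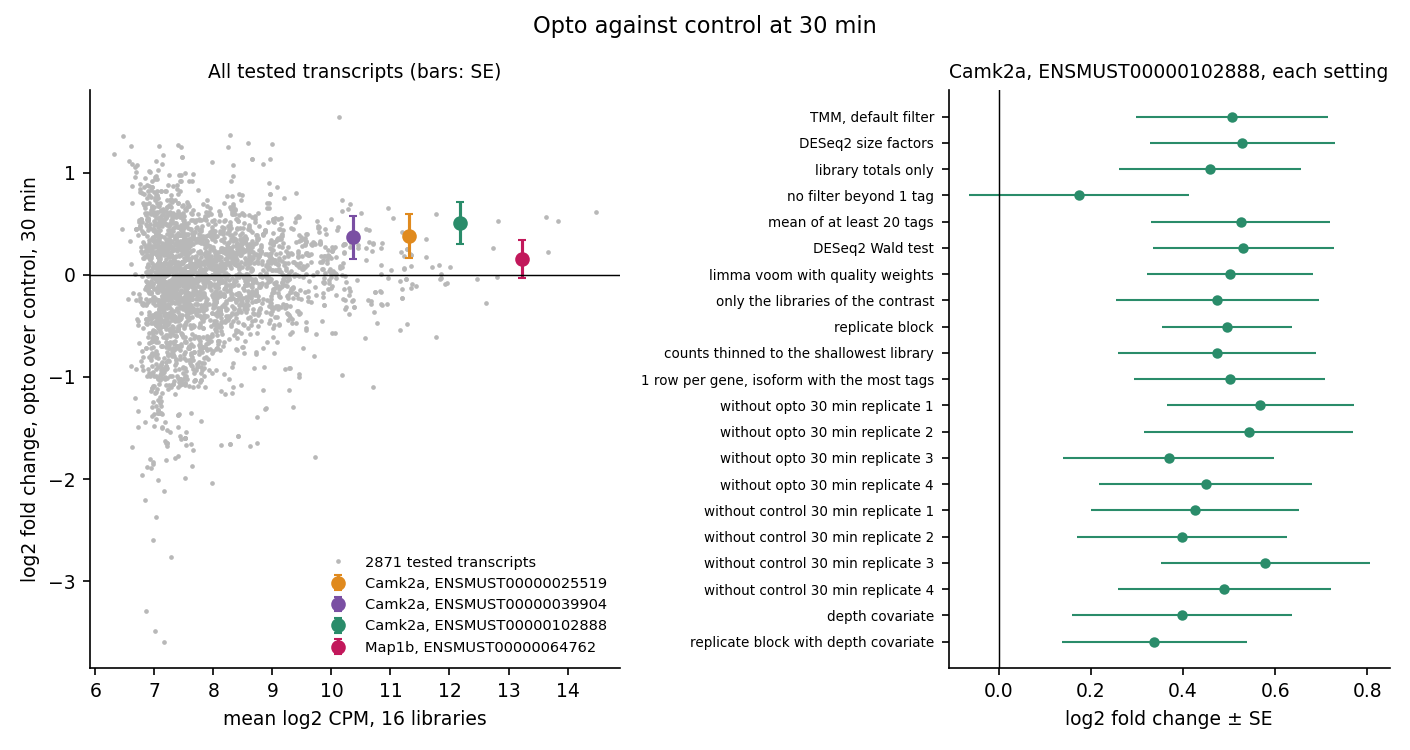
Left, log2 fold change of opto over control at 30 min against mean log2 CPM over 16 libraries for the 2871 tested transcripts (grey), with the 4 members in colour and bars of 1 SE. Right, the log2 fold change ± SE of Camk2a ENSMUST00000102888 under each setting, which ran from 0.17 with no filter on low counts to 0.58 without control replicate 3. The setting with no filter moved the median of the 2871 transcripts by -0.28.

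At 5 min the Camk2a and Map1b transcripts showed no difference between opto and control beyond the spread of the libraries. ENSMUST00000102888 had 3511, 5053, 3179 and 5237 CPM in opto replicates 1 to 4 and 3351, 5063, 3767 and 4407 CPM in the controls. The ranges nearly coincide, and opto was higher in 2 of 4 pairs. Means were 4245 ± 1051 and 4147 ± 749 CPM (SD, n = 4 each) and the log2 fold change was 0.038 (SE 0.21, edgeR adjusted p = 1.00). Its 95% interval, 0.767 to 1.37-fold, ends just below the 1.42-fold estimate at 30 min but overlaps the interval of that estimate.

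For ENSMUST00000025519 the 5 min values were 2083, 2519, 1940 and 2862 CPM in opto and 1915, 2758, 2334 and 2764 CPM in control. ENSMUST00000039904 had 1098, 1259, 905 and 1476 CPM in opto and 1023, 1360, 1092 and 1354 CPM in control. Both had overlapping groups, with opto higher in 2 of 4 pairs and log2 fold changes of -0.053 (SE 0.21) and -0.029 (SE 0.20). Map1b had 8518, 8588, 10078 and 10114 CPM in opto and 8613, 11562, 9950 and 9330 CPM in control, with means of 9325 ± 891 and 9864 ± 1257 (SD, n = 4 each), a log2 fold change of -0.077 (SE 0.18, 95% interval 0.732 to 1.23-fold). In edgeR 0 of the 4 transcripts passed at 5 min, where 0% of the 2871 were called, and 0 of 4 had an unadjusted p under 0.05, against 1.85% of all. DESeq2 and limma gave 0 of 4 on both counts as well. The directions of these values turned under other settings and carry no order.

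The responses at the times were set against each other in one fit, subtracting the log2 fold change at 5 min from the one at 30 min. All 4 differences were positive: 0.47 (SE 0.29) for ENSMUST00000102888, 0.43 (SE 0.30) for ENSMUST00000025519, 0.39 (SE 0.28) for ENSMUST00000039904 and 0.23 (SE 0.26) for Map1b. Single libraries moved these by over 1.5 times: ENSMUST00000102888 to 0.30 without opto 5 min replicate 3, and ENSMUST00000025519 to 0.24 without opto 30 min replicate 3. ENSMUST00000039904 was 0.20 with the same 30 min library left out, 0.23 when opto 5 min replicate 3 was, and 0.26 when control 5 min replicate 4 was. Map1b was 0.099 without control 5 min replicate 2, and between 0.13 and 0.14 without opto 30 min replicate 2, control 30 min replicate 4 or opto 5 min replicate 1. With no filter on low counts it was -0.16, in a setting that moved the median of all transcripts by -0.26. The edgeR adjusted p ran from 0.730 to 0.878 and 0 of 4 passed, where 0.0348% of all transcripts were called. By unadjusted p under 0.05, 0 of 4 passed in edgeR and in DESeq2 and 1 of 4 in limma, against 7.59% of all in edgeR. With the replicate block, ENSMUST00000102888 had a difference of 0.48 (SE 0.19, edgeR unadjusted p = 0.0186, adjusted p = 0.378). A difference between the times is therefore not shown for any of them.

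Between the control libraries of the times, these transcripts differed by less than the spread of the libraries. The log2 difference of 5 min from 30 min controls was -0.043 (SE 0.21) for ENSMUST00000102888, 0.017 (SE 0.21) for ENSMUST00000025519, -0.087 (SE 0.19) for ENSMUST00000039904 and 0.13 (SE 0.18) for Map1b, with edgeR adjusted p of 0.945 to 0.997. Here 0 of 4 passed, where 0.174% of all transcripts were called, and 0 of 4 had an unadjusted p under 0.05 in edgeR, DESeq2 or limma, against 8.92% of all in edgeR. The 95% intervals were 0.725 to 1.30-fold for ENSMUST00000102888 and 0.843 to 1.41-fold for Map1b. The 30 min controls enter this comparison and the 30 min response, and the 5 min libraries carry a label that their files are new. Time and deposit cannot be told apart.

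Ordered by group mean, ENSMUST00000102888 stood at 5954 CPM in opto at 30 min, 4245 in opto at 5 min, 4231 in the 30 min controls and 4147 in the 5 min controls. The last 3 differ by far less than their SDs, and the range of the highest group overlapped that of each of the others. Map1b ran from 10026 CPM in opto at 30 min through 9864 in the 5 min controls and 9325 in opto at 5 min to 9010 in the 30 min controls, with all ranges overlapping.

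Map1b was the steadiest of the 334 more abundant transcripts. Its level varied 1.41-fold between the lowest and highest of the 16 Cre-positive libraries (coefficient of variation 10.5%), while total tags varied 16.7-fold. Of the 334 transcripts that averaged 50 tags or more, 0 had a smaller range or a smaller coefficient of variation, and the medians over them were 2.46-fold and 23.6%. High counts alone keep counting error low, so the 4 transcripts with at least as many tags as Map1b are the closer comparison. Their median range was 3.13-fold and their median coefficient of variation 30.5%.

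The Camk2a transcripts lay near the middle of the 334 in this respect. Their ranges over the 16 libraries were 2.22-fold for ENSMUST00000102888, 2.25-fold for ENSMUST00000025519 and 2.14-fold for ENSMUST00000039904, with coefficients of variation of 23.9%, 22.8% and 20.7%, and 170, 155 and 120 of the 334 had a smaller coefficient. Among transcripts with at least as many tags, 3 of 10 had a smaller coefficient than ENSMUST00000102888. The counts were 15 of 33 for ENSMUST00000025519 and 40 of 93 for ENSMUST00000039904. The median coefficients of these sets were 33.6%, 23.9% and 22.1%, so by this measure ENSMUST00000102888 was steadier than most. The levels of the 3 Camk2a transcripts varied together from library to library. Over the 16 libraries, the Pearson correlations of their log2 CPM were 0.85 to 0.93 among themselves and 0.30 to 0.42 with Map1b. These are descriptions over libraries that share 4 groups, and transcripts of one gene may share tags.

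**Figure D3:**
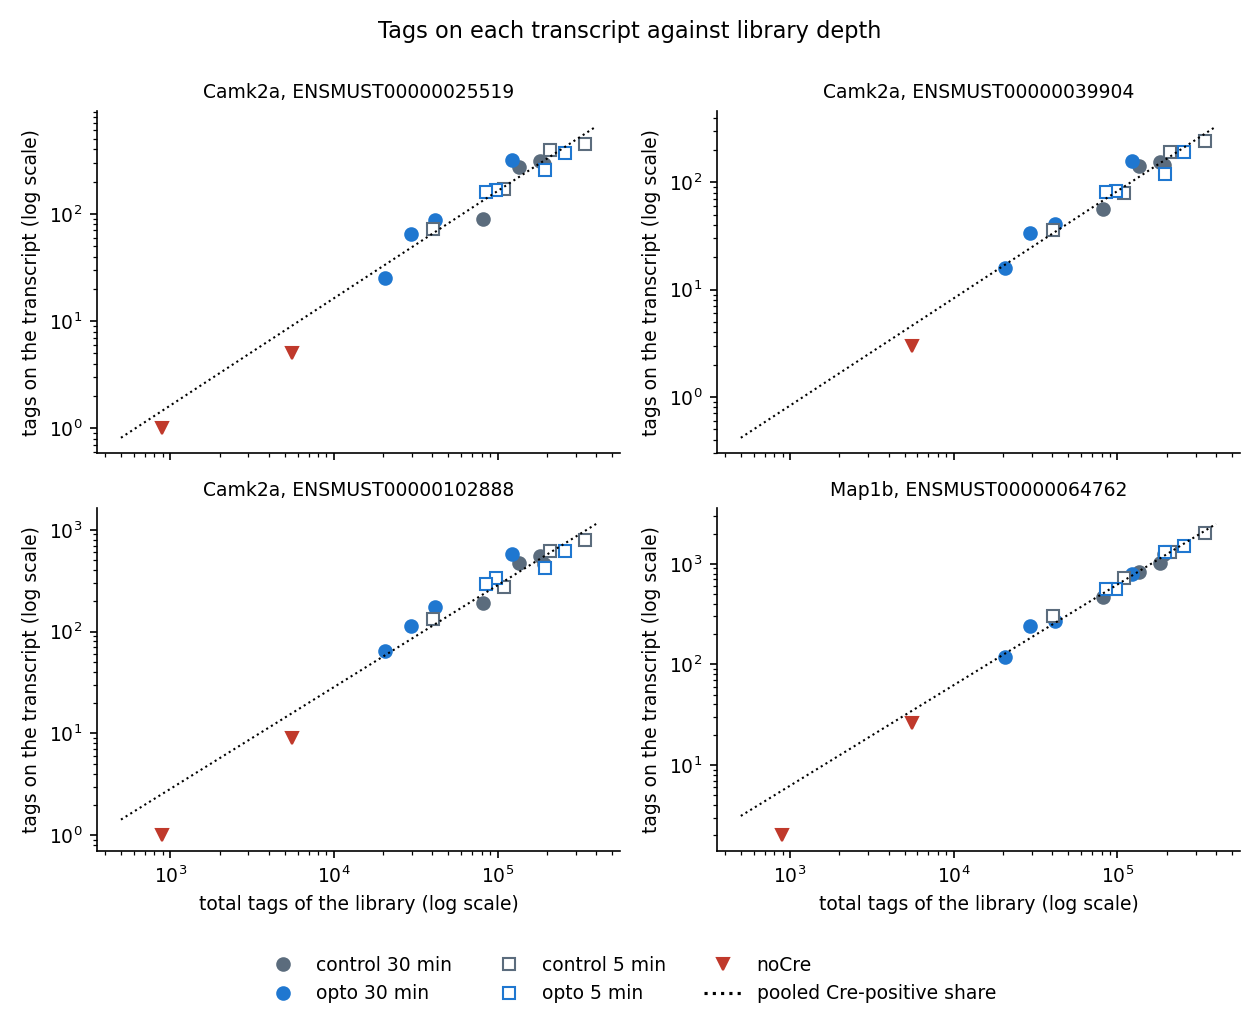
Tags on each transcript against the total tags of its library, both on log scales, for the Cre-positive groups and for the noCre libraries that had at least 1 tag on it. The dotted line is the pooled share of the Cre-positive libraries (0.285% for ENSMUST00000102888 and 0.623% for Map1b), and every noCre point drawn lies below it, on at most 26 tags.

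The order of the 3 Camk2a transcripts by tags was the same throughout. ENSMUST00000102888 held the most tags, ENSMUST00000025519 fewer and ENSMUST00000039904 the fewest in 16 of 16 Cre-positive libraries, with mean shares of 54.5% ± 2.59, 30.0% ± 2.30 and 15.4% ± 0.850 of the summed Camk2a tags (SD, n = 16). At 30 min ENSMUST00000102888 held 61.3, 53.3, 55.0 and 57.6% in opto replicates 1 to 4 and 56.5, 51.7, 53.2 and 54.0% in control replicates 1 to 4. Opto was higher in each pair, by less than the width of the interval in the shallower library, and the groups overlapped. This difference was not tested. Its highest share, in opto replicate 1, rests on 106 Camk2a tags (95% Wilson interval 51.8 to 70.0%), and this interval covers the share in most of the other libraries. How tags that fit several isoforms were assigned is not given in the sources used here, so these shares describe the deposited assignment.

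The ratio of Map1b to summed Camk2a tags within a library needs no scaling between libraries. At 30 min it was 1.11, 1.13, 0.747 and 0.895 in opto replicates 1 to 4 and 1.40, 1.38, 0.934 and 1.00 in control replicates 1 to 4. Opto was lower in each pair and the groups overlapped, with means of 0.972 ± 0.184 and 1.18 ± 0.245 (SD, n = 4 each). The ratio is made of the same tags as the levels above, so it is not a separate observation. Its difference between groups was not tested. At 5 min the ratio was 1.27, 0.973, 1.67 and 1.06 in opto and 1.37, 1.26, 1.38 and 1.09 in control, lower in opto in 3 of 4 pairs. Replicate 3, the exception, had the highest ratio of all, and the means were 1.24 ± 0.313 and 1.28 ± 0.134 (SD, n = 4 each).

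**Figure D4:**
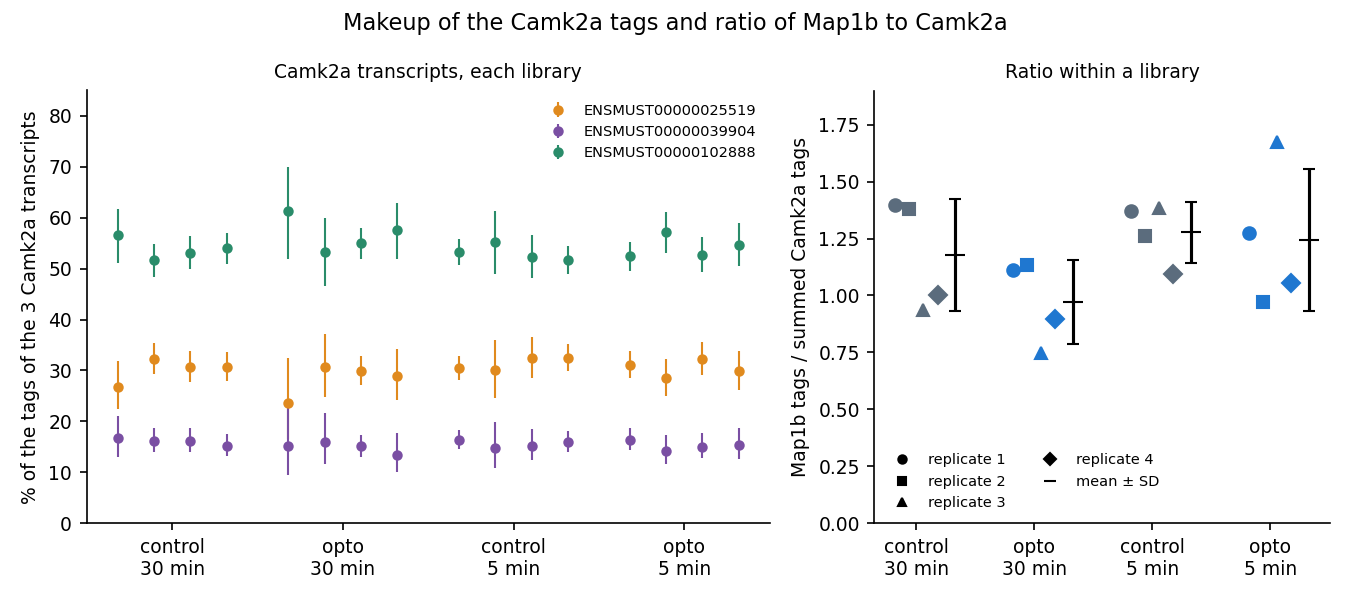
Left, percentage of the summed tags of the 3 Camk2a transcripts that each holds in each Cre-positive library, replicates 1 to 4 from left to right, with 95% Wilson intervals. Right, Map1b tags divided by summed Camk2a tags in each library, with the mean ± SD of each group (n = 4). The order of the Camk2a transcripts is the same in 16 of 16 libraries, and the lowest ratio of Map1b to Camk2a, 0.747, is in opto 30 min replicate 3.

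By likeness of log2 CPM over the 16 Cre-positive libraries, the transcript outside the members most like Camk2a ENSMUST00000102888 was ENSMUST00000195612, with a Pearson correlation of 0.87 (Spearman 0.88) on a mean of 37.7 tags. The most like Map1b was ENSMUST00000169735, with a Pearson correlation of 0.80 (Spearman 0.76) on a mean of 13.9 tags. Each is the highest among all other tested transcripts, and no table used here pairs these identifiers with genes.

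The noCre libraries held few tags on these transcripts, but as a share of their own small totals the transcripts were present there too. Map1b had 2, 0 and 26 tags in noCre replicates 1 to 3, on totals of 887, 34 and 5557 tags, against a mean of 832 tags per Cre-positive library. ENSMUST00000102888 had 1, 0 and 9 tags, ENSMUST00000025519 1, 0 and 5, and ENSMUST00000039904 0, 0 and 3. In tags, the noCre libraries thus held far less than the Cre-positive ones, but their totals were smaller as well. As pooled shares, the Cre-positive libraries had 1.44 times the noCre value for Map1b and 1.76 to 1.85 times for the Camk2a transcripts.

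As a share of all tags, the pooled noCre libraries had 0.432% on Map1b (28 of 6478, 95% Wilson interval 0.299 to 0.624%), against 0.641% ± 0.0701 (SD, n = 16) in the Cre-positive libraries, which ranged from 0.562 to 0.816%. For ENSMUST00000102888 the pool had 0.154% (10 tags, 0.0839 to 0.284%) against 0.311% ± 0.0742 (SD, n = 16). For ENSMUST00000025519 it had 0.0926% (6 tags, 0.0425 to 0.202%) against 0.171% ± 0.0398, and for ENSMUST00000039904 0.0463% (3 tags, 0.0158 to 0.136%) against 0.0876% ± 0.0184 (SD, n = 16 each). All 16 Cre-positive libraries lay above the pooled noCre share for each of the 4 transcripts, as they did for 38.5% of the 2871 tested and 51.8% of the 334 more abundant ones.

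An exact two-sided permutation test on the library shares, 16 against 3, gave p = 0.00103 for Map1b, ENSMUST00000102888 and ENSMUST00000039904, the smallest that 969 arrangements allow, and p = 0.00206 for ENSMUST00000025519. Under the same test, 60.3% of the 2871 transcripts and 52.4% of the 334 were higher in the Cre-positive libraries with p under 0.05, and 28.5% of the 2871 reached the smallest p. With 48.2% of the 2871 at 0 tags in all noCre libraries, low p-values were common, and the count of 4 says nothing particular to these transcripts. These p-values give a library of 34 tags the same weight as one of 5557. In noCre replicate 2, where 0 tags were seen, shares of up to 8.82% are allowed, which covers every Cre-positive value. In replicate 3, the deepest, the Wilson intervals reached into the Cre-positive range for all 4: 0.320 to 0.685% for Map1b, 0.0852 to 0.308% for ENSMUST00000102888, 0.0384 to 0.210% for ENSMUST00000025519 and 0.0184 to 0.159% for ENSMUST00000039904. No single noCre library had an interval below the whole Cre-positive range. In replicate 3 the interval held the Cre-positive mean for Map1b, ENSMUST00000025519 and ENSMUST00000039904. For these, a share below that mean is not resolved from counting error in any single noCre library. For ENSMUST00000102888 the replicate 3 interval ended just below the Cre-positive mean of 0.311%.

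The mRNA of FMRP itself is hardly seen under the identifier listed for it. The transcript ENSMUST00000088546 had 1 tag in control 30 min replicate 4, 1 tag in control 5 min replicate 4 and 0 in the other 17 libraries. The libraries with a tag held 181115 and 208890 tags. With 0 tags, the share this depth allows is up to 0.0147% where Cre-positive tags were fewest, 0.000879% where they were most and 0.0463% in the pooled noCre tags. Such counts are common in these files, where 16793 of the 49932 transcripts (33.6%) had 2 or fewer tags in all libraries together. Fitted without the filter, it had an edgeR adjusted p of 0.826 at 30 min and 0.724 at 5 min, which on 2 tags carries no information about the groups. Tags of Fmr1 may have been assigned to other isoforms, whose identifiers are not paired with the gene here, so these counts describe this identifier and not the gene.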

How the data were processed

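Each library has 1 deposited file of raw counts of FMRP CLIP tags by transcript, per the file headers. The smallest value is 1, and transcripts missing from a file were set to 0. Per the submitters' processing notes, cutadapt, STAR and the build mm10 were used. Their versions, the annotation, the handling of duplicates and the assignment of tags to isoforms are not given in the sources used here. Duplicates kept as tags, or tags repeated between isoforms, would make counts less independent than the tests assume.

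Libraries were grouped by title. The 16 Cre-positive libraries were fitted together with edgeR 4.0.16 (R 4.3.3): TMM, default filterByExpr (minimum count 10, minimum total 15), a mean per group, quasi-likelihood test and Benjamini-Hochberg adjustment over 2871 transcripts, with adjusted p under 0.05 as the threshold. Between 64.8 and 70.9% of a library fell on tested transcripts. The noCre libraries were compared by share of tags with exact permutation tests, and intervals are 95% Wilson intervals (scipy 1.17.1). Limits for a count of 0 take 3 tags. Alternatives changed the scaling, the filter, the tool (DESeq2 1.42.0, limma 3.58.1), the libraries fitted, the isoform rows, thinning and the block. Library depth as a covariate was chosen after seeing the data.

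No label says that replicate numbers pair opto and control libraries of a time. The data were examined for this, but only same-numbered libraries were correlated, so pairing is not settled. The main results come from the fit without a block, and the block result stands beside them. Deviations from group means correlated at 0.202 to 0.689 in the 8 pairs over the 334 transcripts averaging 50 tags or more, and at 0.0915 to 0.332 over all 2871, where 2 pairs were under 0.1.

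All 5 members were named whatever their values, with the transcript most alike for Camk2a and for Map1b. For Fmr1, with 2 tags, none was sought. The members and settings were chosen with earlier results of these data known. Lists of other genes and cell type markers were not analysed here, because no table used here pairs the identifiers with genes.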

Additional observations from a re-analysis of the deposited data

How the results depend on the processing

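In each of the 4 comparisons between groups, 0 of the members passed the adjusted threshold of edgeR, DESeq2 or limma under any alternative run, and in the noCre comparison 4 of 4 stayed under a permutation p of 0.05 (0.00103 to 0.0327), which 60.3% of all tested transcripts also met with all libraries. Of 324 values under alternatives, 298 kept their direction and 26 turned. At 30 min, the Camk2a transcripts stayed positive in every setting, but with no filter ENSMUST00000025519 was 0.052 and ENSMUST00000039904 0.041, and with block and depth together 0.24 and 0.18. Map1b turned to -0.21 on the log2 scale with no filter on low counts and to -0.037 with replicate block and depth covariate together. The setting without a filter moved the median of the 2871 transcripts by -0.28 at 30 min and by -0.26 in the difference of responses, where Map1b turned to -0.16. Relative to that shift Map1b did not turn, and the low Camk2a values with no filter carry the same shift. The replicate block changed no call of a member. With it the log2 fold changes at 30 min were 0.35, 0.32, 0.50 and 0.15 for ENSMUST00000025519, ENSMUST00000039904, ENSMUST00000102888 and Map1b.

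At 5 min, leaving out single libraries moved ENSMUST00000025519 between -0.15 and 0.038, ENSMUST00000039904 between -0.14 and 0.092, ENSMUST00000102888 between -0.066 and 0.16 and Map1b between -0.13 and 0.010, and limma gave ENSMUST00000102888 as -0.017. Between the control times, leaving out single libraries moved them between -0.12 and 0.13, -0.18 and 0.027, -0.15 and 0.057, and 0.031 and 0.17 in that order. ENSMUST00000025519 was -0.013 with no filter and -0.075 in limma there, and ENSMUST00000039904 was 0.25 in thinned counts. The causes were not tested. The block was not run between the control times, nor a fit on the libraries of the contrast alone for the difference of responses, which uses all 16. Depth limits the noCre shares and the 30 min opto values, the lowest of which rest on 16 to 118 tags.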
